A study of Arabidopsis thaliana with 20 samples.

Results

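The response of Arabidopsis roots to 24 h under water was set against the response of shoots of the same age. For each probe set, the change in roots (submerged minus dark) had the change in shoots subtracted from it, so that a positive value means a higher value in submerged roots than the shoot change would give, and a negative value the reverse. This difference of differences is called the tissue difference here. It used 8 of the 20 arrays, and was computed for 22746 of the 22810 probe sets, leaving out only the array maker's own controls. Probe sets with opposite changes in roots and shoots were then kept apart from those called in 1 tissue, and these from probe sets so low in the other tissue that a fall there is hard to measure.

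All plants were wild type of the Col-0 accession, grown in soil at 20 °C with a 9 h photoperiod to the stage of 9 to 10 leaves. Pots were put under water 2 h into the light period and kept in complete darkness for 24 h, and the watered controls spent the same time without water cover in the dark. Whole roots and whole shoots were harvested separately, which gave 4 groups (submerged roots, dark roots, submerged shoots and dark shoots), with 2 arrays each, from RNA pools of 2 independent experiments. How many plants a pool held is not given in the sources used here. The other 12 arrays were the same groups at 7 h and plants harvested in the light at 0 h. Since both arms were dark, a change below is the difference that water made to darkened tissue.

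Water slows the diffusion of oxygen into plant tissue, and roots in flooded soil, which have no photosynthesis of their own, are commonly the first organ to run short. Plant cells short of oxygen turn on a small set of genes for fermentation and sugar use, among them pyruvate decarboxylase, and do so through ethylene response factors that are destroyed while oxygen is present. Leaves under water stop losing water vapour and exchange gases slowly, and genes of abscisic acid and of cell wall growth are known to respond there.

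Array medians lay between 6.13 and 6.41 on the log2 scale, and replicate arrays of the 24 h groups correlated with Pearson r between 0.994 and 0.996 across probe sets. The tissue labels matched the markers that could be named. Of 16 shoot markers listed, 4 were measured, and their summed linear level was 156 to 235 in the 24 h root arrays against 7706 to 9225 in the shoot arrays. RCA, the activase of Rubisco, read 6.74 to 7.55 in roots and 12.87 to 13.14 in shoots, and the other 3 shoot markers, STOMAGEN, SPCH and FMA, lay below 6 on all 4 root arrays. SPCH lay below 6 in shoots as well (3.97 to 4.56), and so did not separate the organs. Of 14 root markers listed, only PYK10 and EXPA7 were measured. PYK10, a beta-glucosidase typical of roots, read 10.78 and 10.92 in dark roots, 10.22 and 9.72 in submerged roots, and 9.29 to 9.48 in shoots, so that its level in roots was closer to that of shoots after submergence. It fell in roots (-0.89, adjusted p = 0.0073), and its tissue difference of -0.94 (adjusted p = 0.028) was lost without root dark replicates 1 or 2, root submerged replicate 2, shoot dark replicates 1 or 2 or shoot submerged replicate 1, between -1.19 and -0.69. Whole organs were measured, so that fewer cells of a type and less RNA per cell cannot be told apart.

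The tissue difference was called (adjusted p under 0.05, limma) for 1561 probe sets, 6.86% of those tested. It was positive in 678 (2.98%) and negative in 883 (3.88%), and the median over all tested probe sets was -0.001. Submergence itself changed 732 probe sets in roots (3.22%; 1.39% up and 1.83% down) and 2712 in shoots (11.9%; 5.9% up and 6.02% down). Only 217 were called in both organs (0.954%), and across all tested probe sets the root and the shoot change correlated with Pearson r of 0.179, given as a description. Of the 217, 176 moved the same way (0.774%) and 41 moved opposite ways (0.18% of those tested).

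The 1561 fell into 7 kinds. Opposite changes made up 41, with 27 lower in submerged roots and higher in submerged shoots and 14 the other way round. A same-direction change of unequal size made up 28. Shoots were called and roots were not in 1099, and in 344 of these all 4 root arrays lay below 6, leaving 755 in which roots were measured. Roots were called and shoots were not in 235, of which 104 had all 4 shoot arrays below 6 and 131 did not. The remaining 158 were called in neither organ alone, and only their difference passed. The level of 6 stands in for detection calls, and 44.6% of all tested probe sets lay below it on the 4 root arrays and 44.9% on the 4 shoot arrays. A low level limits a fall most, and may also hide a small rise. It matters most for the 201 falls of shoots with low roots and the 49 falls of roots with low shoots. It matters less for the 143 and 55 rises. Same-direction changes were not split by this level.

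**Figure D1:**
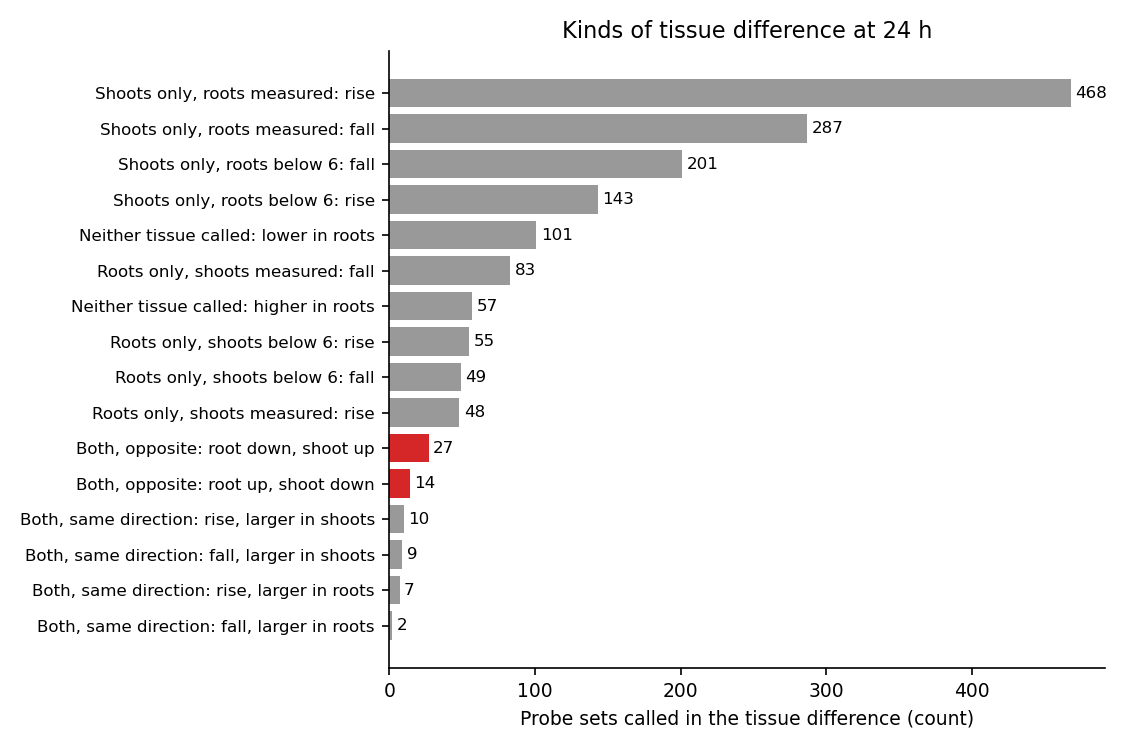
Number of probe sets (horizontal axis) of each kind among the 1561 called in the tissue difference at 24 h, from 4 groups of 2 arrays. Rises in shoots with roots measured were the most frequent kind at 468, and the 27 and 14 opposite changes are in red.

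**Figure D2:**
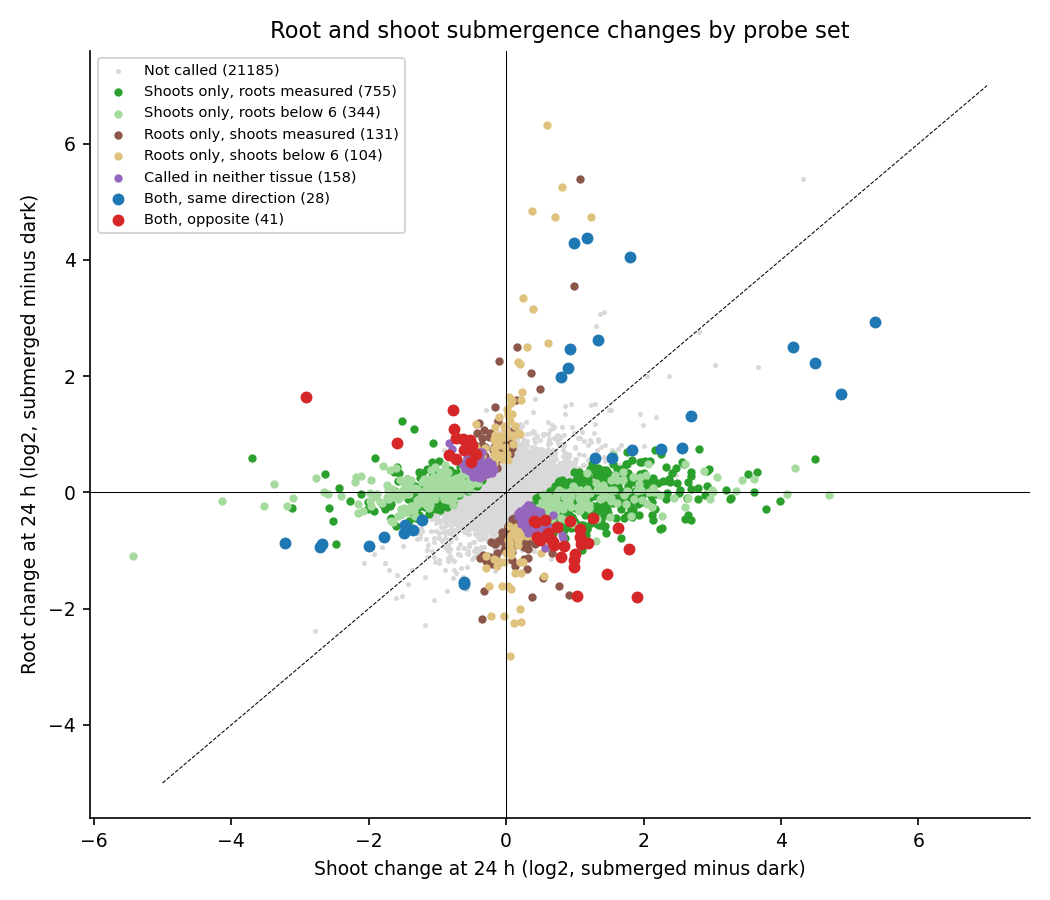
Change in roots (vertical axis, log2) against change in shoots (horizontal axis, log2) at 24 h, 1 point per probe set, with the kind in colour and equal changes on the dashed line. Shoot-only probe sets lie along the horizontal axis, root-only ones along the vertical axis, and the 41 opposite ones in the upper left and lower right.

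These counts changed when single arrays were left out. Such a fit keeps 1 array in that group, which makes the estimates less precise. A call lost there can come from lower precision as well as from the values of that array. The total was 961 without the first root dark array, 971 without the second submerged root array and 1012 without the second shoot dark array, and lay between 1045 and 1263 without any 1 of the other 5. The 755 fell to 497 without root dark replicate 1 or shoot dark replicate 1 and to 462 without shoot dark replicate 2. The 131 became 46 without root dark replicate 1, and 78 and 45 without the first and the second submerged root array. The 28 became 14 without either the first root dark or the second submerged root array, and 18 without the first shoot array of either arm. The 158 were 85, 102, 77, 93 and 101 without root dark 1, root submerged 1, root submerged 2, shoot dark 1 and shoot submerged 2. The number with low values in the other tissue, 448 with all arrays, lay between 302 and 389.

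The 41 opposite probe sets had small changes. In the 27 with lower roots the median change was -0.82 in roots and 0.93 in shoots, and in the 14 with higher roots 0.83 and -0.68. Only 5 of the 41 changed by at least 1, a 2-fold change, in both organs. Submerged and dark arrays did not overlap in either organ in any of the 41, which the choice by both tests all but fixes (47.1% of all tested probe sets had no overlap in roots and 52.5% in shoots). All 8 arrays lay at 6 or above in 22, while 5 lay below 6 on all 4 root arrays and 5 on all 4 shoot arrays. Leaving out a root dark array gave 14 (replicate 1) or 47 (replicate 2), a submerged root array 20 or 13, a shoot dark array 23 or 18, and a submerged shoot array 32 or 26. Individually, 4 of the 41 were opposite in all 8 fits that left out 1 array, 11 in at least 6 and 6 in none. The probe table named 1 gene for 20 of the 41.

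AT1G68620 was the largest opposite response that named 1 gene and the one named gene that was opposite in all 8 left-out fits. It read 7.56 and 7.07 in dark roots, 5.86 and 5.95 in submerged roots, 7.78 and 8.11 in dark shoots, and 9.43 and 9.40 in submerged shoots. The organs lay close together in the dark, and water lowered it in roots and raised it in shoots with no overlap of arrays. The changes were -1.41 in roots (adjusted p = 3.5e-05) and 1.47 in shoots (adjusted p = 3.3e-06), and the tissue difference was -2.89 ± 0.22 (SE, adjusted p = 5.1e-07). At 7 h the changes were already -1.16 and 1.21, and both were called (adjusted p = 0.00015 and 2.4e-05).

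SWEET11, a sucrose exporter that loads the phloem in leaves, also went down in roots and up in shoots. It read 10.16 and 10.05 in dark roots, 9.18 and 8.46 in submerged roots, 10.58 and 10.56 in dark shoots, and 11.35 and 11.76 in submerged shoots. The submerged arrays of both organs thus lay outside the dark ones, on opposite sides. The root change was -1.29 (adjusted p = 0.0011), the shoot change 0.99 (adjusted p = 0.0029) and the difference -2.27 ± 0.29 (adjusted p = 6.5e-05). In the light SWEET11 read 4.98 in roots and 10.40 in shoots, so the root values of dark plants were far above those of lit plants. At 7 h only shoots rose (1.79, adjusted p = 6.4e-06), with 0.07 in roots (adjusted p = 0.9). It was opposite in 7 of 8 left-out fits.

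AT1G29660 had the largest difference of the other kind among probe sets that name 1 gene. Its values were 6.03 and 5.95 in dark roots, 6.74 and 6.94 in submerged roots, 10.07 and 9.86 in dark shoots, and 8.20 and 8.54 in submerged shoots. Shoots stayed above roots throughout, and submergence brought the organs closer. The root change was 0.85 (adjusted p = 0.0039), the shoot change -1.59 (adjusted p = 1.3e-06) and the difference 2.44 ± 0.22 (adjusted p = 1.9e-06), and it was opposite in 7 of 8 left-out fits. At 7 h shoots alone had fallen (-2.98), with 0.07 in roots.

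AT5G43450, opposite in 7 of 8 left-out fits, read 5.62 and 5.85 in dark roots, 4.65 and 4.61 in submerged roots, 8.42 and 8.29 in dark shoots, and 9.16 and 9.15 in submerged shoots. Its root values were low, and its shoot values rose above an already high level. The changes were -1.1 and 0.80, and the difference -1.90 ± 0.26 (adjusted p = 0.00016). The other 8 named opposite genes were less secure. Of those with lower roots, AT1G50020 (-0.87 in roots, 1.19 in shoots) was opposite in 5 left-out fits, AT2G25450 (-0.90 and 0.70) in 4 and AT2G46600 (-0.93 and 0.84) in none. Of those with higher roots, AT1G03610 (0.91 and -0.52) was opposite in 4, AT1G07870 (0.92 and -0.63) in 2, AT3G58000 (1.41 and -0.77) and AT2G05120 (0.82 and -0.49) in 1 each, and AT1G49450 (0.73 and -0.61) in none. In all 12 the tissue difference itself was called in every left-out fit. AT1G49450 and AT2G05120 had shoot values far below 6 on all 4 arrays, from 4.23 to 4.92 and from 4.62 to 5.29, where a fall is measured over a narrow range.

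**Figure D3:**
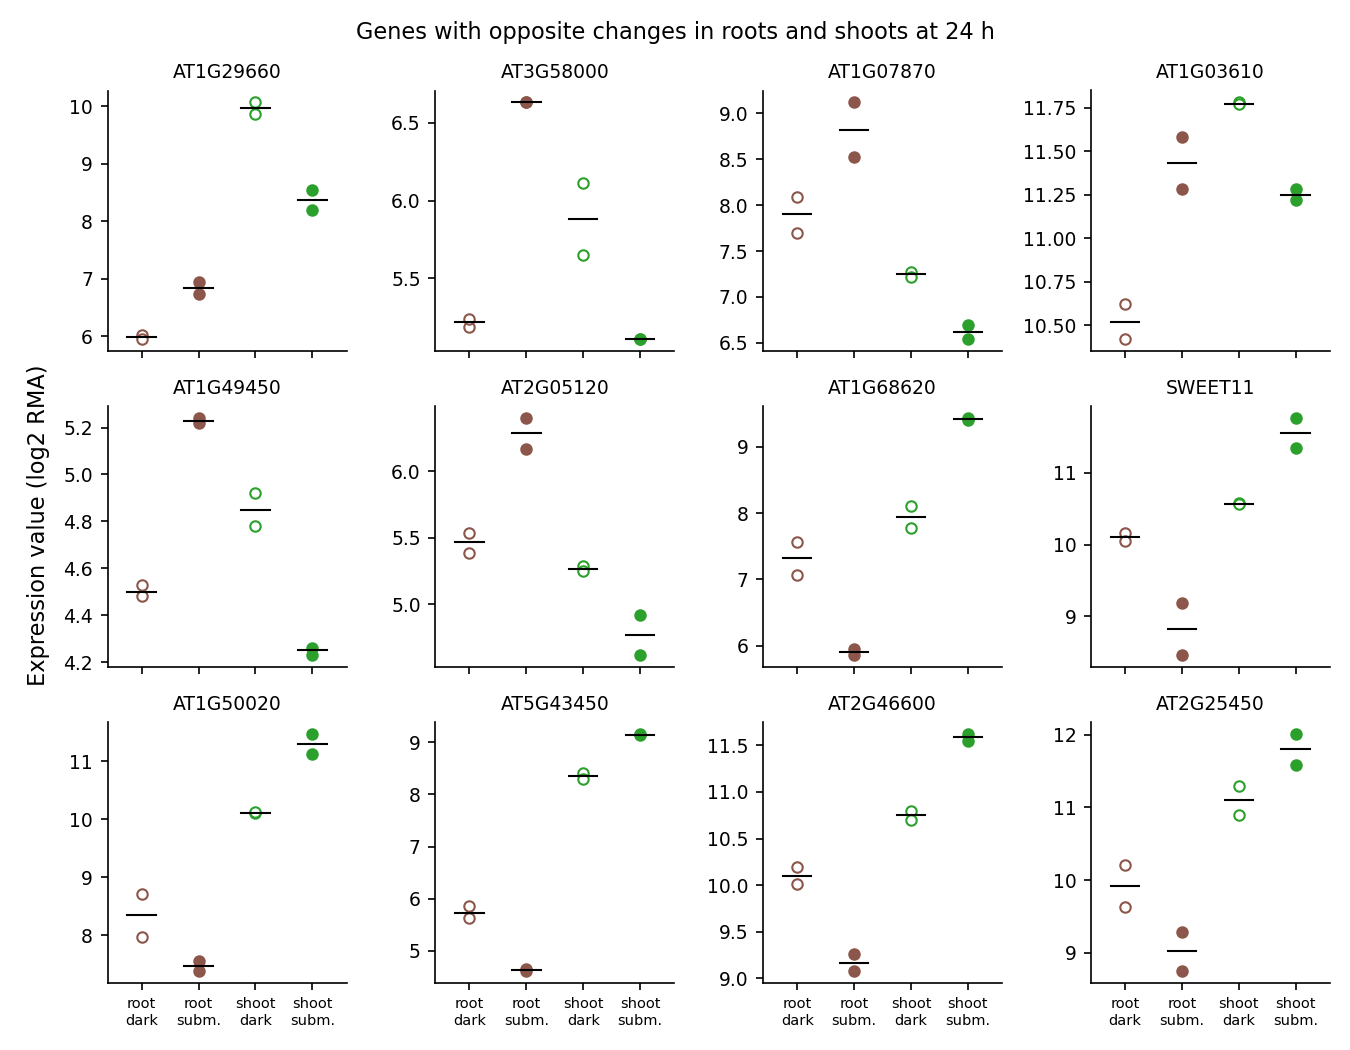
Expression value (vertical axis, log2 RMA, scale differs by panel) of the 12 named genes with opposite changes in dark and submerged roots (brown) and shoots (green) at 24 h, with 1 point per array, dark open and submerged filled, and a bar at the mean of 2. In AT1G68620 the submerged roots lie at 5.86 and 5.95 below the dark roots, and the submerged shoots at 9.40 and 9.43 above the dark shoots.

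Of the measured genes for low oxygen, 10 of 21 rose in roots and were called higher there than the shoot change would give. The list held 44 genes known to respond to low oxygen in many cell types, and the probe table named 21 of them. A positive tissue difference was called for 11 of the 21 and a negative one for none. Among the 13350 genes that could be named, 2.45% were called positive and 3.37% negative. The median difference was 1.24 against -0.006. In roots 15 of the 21 rose and none fell, against 1.39% and 1.83% of all tested probe sets. In shoots 8 rose and 1 fell, against 5.9% and 6.02%. The 11 became 7 without root dark replicate 1, shoot dark replicate 1 or shoot submerged replicate 2, and 6 without root submerged replicate 2, while the 8 shoot rises became 5 without shoot dark replicate 2 or shoot submerged replicate 1. Both organs responded alike in number at 7 h, when 15 rose in roots and 16 in shoots (4.42% and 6.52% of all tested probe sets rose at 7 h). The median change went from 1.72 at 7 h to 2.14 at 24 h in roots, and from 2.19 to 0.71 in shoots. In limma's test of the change of the tissue difference between the times 1 of the 21 was called (AT3G03270, 2.06, adjusted p = 0.046), so a divergence over time was not shown for the others. At 7 h the tissue difference was called positive for 3 and negative for 2. None of the 21 was among the opposite responses.

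AT3G10040, the transcription factor HRA1 that dampens the low-oxygen response, rose in both organs. It read 5.20 and 5.35 in dark roots, 9.06 and 10.09 in submerged roots, 4.59 and 4.29 in dark shoots, and 5.53 and 5.33 in submerged shoots. Dark levels were similar, and the submerged roots stood far above every other array. The rise was 4.30 in roots (adjusted p = 5.2e-08) and 0.99 in shoots (adjusted p = 0.015), with a difference of 3.31 ± 0.36 (adjusted p = 1.5e-05). AT4G24110 had similar values, with rises of 4.37 and 1.17 and a difference of 3.20 ± 0.44 (adjusted p = 0.00018).

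PDC2, a pyruvate decarboxylase of ethanol fermentation, was called in roots and not in shoots. Its values were 8.11 and 8.19 in dark roots, 10.40 and 10.90 in submerged roots, 7.65 and 7.58 in dark shoots, and 7.77 and 7.76 in submerged shoots. Shoots were well measured and hardly differed between the arms. Roots rose 5.64-fold (2.50, adjusted p = 6.3e-07), shoots changed by 0.15 (adjusted p = 0.72), and the difference was 2.34 ± 0.28 (adjusted p = 3.2e-05). At 7 h the difference was 1.2 (adjusted p = 0.012). AT4G17260, of the same list, rose by 2.05 in roots (adjusted p = 6.3e-07) against 0.36 in shoots (adjusted p = 0.18), a difference of 1.70 ± 0.22 (adjusted p = 0.00011).

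The largest differences of the list were in genes near the lower end of the scale in shoots. AT2G17850 read 5.01 and 5.53 in dark roots, 9.99 and 11.05 in submerged roots, 4.22 and 4.32 in dark shoots, and 5.19 and 4.96 in submerged shoots. All shoot arrays lay below 6, and since both organs were low in the dark, a shoot rise as large as that of roots would have been visible. Roots rose 38.1-fold (5.25, adjusted p = 1.3e-06), and the difference was 4.44 ± 0.62 (adjusted p = 0.0002). At 7 h shoots had risen too (2.84, adjusted p = 0.00019), and the 7 h difference of 1.93 was not called (adjusted p = 0.069). AT4G33560 had 4.74 in roots, 1.23 in shoots (adjusted p = 0.12) and a difference of 3.50 ± 0.68 (adjusted p = 0.0034).

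Another 5 calls of the list were lost without single arrays. AT5G10040 read 4.06 and 4.23 in dark roots, 8.14 and 9.62 in submerged roots, and 3.95 to 4.98 in shoots. Both submerged root arrays were far above all others, although apart from each other. Its difference of 4.02 (adjusted p = 0.019) was lost without root dark replicate 1, root submerged replicate 2, shoot dark replicates 1 or 2, or shoot submerged replicate 2, between 3.28 and 4.77. AT5G66985 (1.96, adjusted p = 0.043) and AT3G27220 (1.28, adjusted p = 0.028) were lost without the same 5 arrays, between 1.37 and 2.55 and between 0.96 and 1.61. AT5G66985 also lost its call after repeated quantile normalization (adjusted p = 0.054) and with an intensity trend (adjusted p = 0.14), and AT5G10040 with the trend (adjusted p = 0.098). AT3G03270 (1.24, adjusted p = 0.027) was lost without those 5 or shoot submerged replicate 1, between 0.91 and 1.57. AT5G42200 differed in kind, since it fell in shoots (-0.89, adjusted p = 0.0022) with 0.19 in roots. Its difference of 1.07 (adjusted p = 0.013) was lost without root dark replicate 2 or root submerged replicate 2, at 0.98 and 0.99.

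The other 10 members were not called in the difference. AT4G10270 was the member with the largest change in both organs, at 5.40 in roots and 4.32 in shoots, and its difference of 1.08 was not called (adjusted p = 0.22, 95% interval 0.06 to 2.10). AT1G33055 rose by 1.35 in roots and 1.95 in shoots, with a difference of -0.60 (adjusted p = 0.33). AT1G19530 read 13.77 to 14.18 in roots in both arms and rose by 1.54 in shoots only (adjusted p = 0.0025), with a difference of -1.22 that was not called (adjusted p = 0.12).

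**Figure D4:**
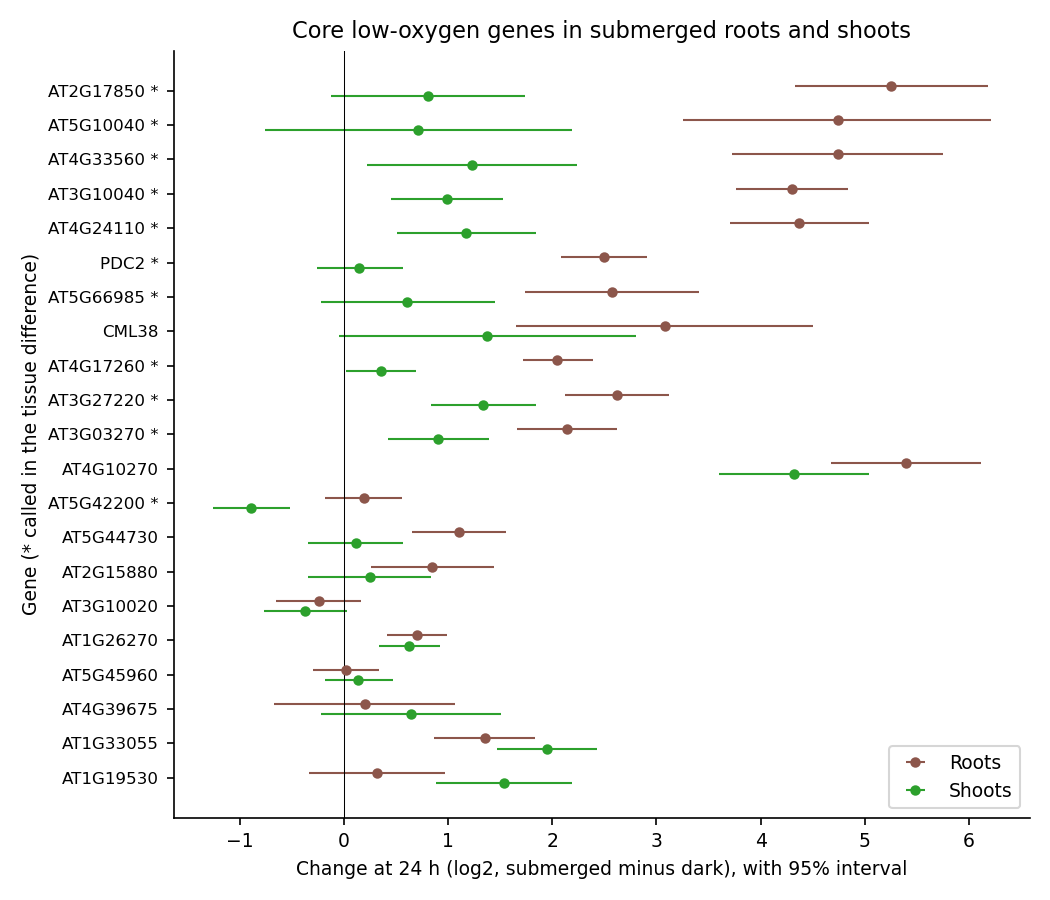
Change at 24 h (horizontal axis, log2, submerged minus dark, with 95% interval) of the 21 measured low-oxygen genes in roots (brown) and shoots (green), ordered by tissue difference, with a star for those called. The upper genes, such as AT2G17850 (5.25 and 0.81), rose more in roots, and AT4G10270 (5.40 and 4.32) rose in both.

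Among named genes called in roots and not in shoots, with shoots measured, AT2G47560 had the largest difference of the rises. It read 7.10 and 6.55 in dark roots, 8.71 and 9.46 in submerged roots, 6.87 and 6.58 in dark shoots, and 6.49 and 6.73 in submerged shoots. Shoot arrays of both arms overlapped, at the level of dark roots. Roots rose by 2.26 (adjusted p = 9.4e-06) and the difference was 2.37 ± 0.31 (adjusted p = 0.00012). AT4G34950 rose by 1.47 in roots, with a difference of 1.64 (adjusted p = 0.0099) that was lost without root submerged replicate 2 (1.47) or shoot dark replicate 2 (1.54).

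Falls in roots with shoots measured outnumbered rises, at 83 against 48, and the median fall was -0.82. AT4G16190 had 13.23 and 13.37 in dark roots, 12.07 and 11.90 in submerged roots, 13.28 and 13.19 in dark shoots, and 13.66 and 13.43 in submerged shoots. The dark arrays of both organs lay together, and only the submerged roots stood apart. Roots fell by 1.31 (adjusted p = 2.3e-05), shoots changed by 0.31 (adjusted p = 0.18), and the difference was -1.62 ± 0.20 (adjusted p = 4.1e-05). AT5G54300 fell by 2.18 in roots and changed by -0.35 in shoots (adjusted p = 0.27), for a difference of -1.83 ± 0.25 (adjusted p = 0.00019). AT2G41730, whose probe set can bind related transcripts, fell by 1.47 in roots with 0.54 in shoots, a difference of -2.02 ± 0.28 (adjusted p = 0.00019). AT3G60420 had dark root arrays at 7.02 and 5.78, and its difference of -2.17 (adjusted p = 0.018) was lost without root dark replicate 1, root submerged replicate 1, shoot dark replicate 1 or shoot submerged replicate 2, between -2.79 and -1.55.

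Among the 104 with low shoots, 49 were falls in roots of genes whose shoot values lay near the bottom of the scale. AT1G64590 read 7.48 and 7.22 in dark roots, 5.52 and 4.67 in submerged roots, and 4.80 to 5.42 in shoots. Submergence took the root values down to those of shoots. Its root change was -2.25 (adjusted p = 5.3e-05) and the difference -2.37 ± 0.37 (adjusted p = 0.00051). AT1G63590 had -2.23 in roots and a difference of -2.44 ± 0.40 (adjusted p = 0.00089), and AT5G39670 had -1.44 and -2.00 ± 0.42 (adjusted p = 0.0058), with shoot arrays from 4.14 to 4.49 and from 4.63 to 5.48.

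Rises in shoots made up the largest kind. In the 468 with roots measured, the median shoot value went from 7.35 in the dark to 8.69 under water, while roots had 8.78 in the dark and 8.72 under water. Since this kind holds only rises with roots measured, a high root level is partly built into it, and in the 143 rises with low roots the medians under water were 6.70 in shoots and 4.53 in roots. In the light arrays at 0 h, 826 of all 1343 shoot rises, whatever the roots, were higher in roots than in shoots (61.5%), against 51.5% of all tested probe sets. It was 349 of the 468 and 33 of the 143.

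AT5G64120, the secreted peroxidase PRX71 of the cell wall, had the largest difference of the named shoot rises with roots measured. It read 11.55 and 11.51 in dark roots, 11.40 and 11.37 in submerged roots, 6.98 and 7.28 in dark shoots, and 11.16 and 11.07 in submerged shoots. Submerged shoots nearly reached the root values, which barely differed between the arms. Shoots rose 15.8-fold (3.98, adjusted p = 8.1e-08), roots changed by -0.15 (adjusted p = 0.91), and the difference was -4.13 ± 0.43 (adjusted p = 1e-05). In the light it read 6.96 in roots and 5.88 in shoots, so the high root level belonged to dark plants.

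AT3G46280 read 9.50 and 9.80 in dark roots, 10.22 and 10.23 in submerged roots, 4.26 and 4.10 in dark shoots, and 8.97 and 8.37 in submerged shoots. Here too shoots alone moved beyond the threshold, from the bottom of the scale towards the root level. They rose 22.5-fold (4.49, adjusted p = 3.5e-09) against 0.58 in roots (adjusted p = 0.3), a difference of -3.91 ± 0.36 (adjusted p = 2.6e-06). AT2G18690 rose by 3.60 in shoots with 0.00 in roots (difference -3.60 ± 0.39, adjusted p = 1.5e-05). AT5G48430 rose by 3.65 in shoots from 5.57 and 4.60 to 8.78 and 8.70, while roots lay between 11.68 and 12.06 (difference -3.31 ± 0.41, adjusted p = 6e-05).

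In 143 further rises of shoots all root arrays were low, where a large rise could still have been measured but a small one may be hidden. AT5G18840 read 5.44 and 5.55 in dark roots, 5.92 and 5.90 in submerged roots, 4.92 and 5.22 in dark shoots, and 9.14 and 9.41 in submerged shoots. Only the submerged shoots stood above 6. The shoot rise was 4.21 (adjusted p = 1.8e-10), the root change 0.42 (adjusted p = 0.31) and the difference -3.79 ± 0.26 (adjusted p = 2.7e-07). SD1-29, a lectin-domain receptor kinase, had 3.61 in shoots and 0.23 in roots (difference -3.37 ± 0.30, adjusted p = 1.8e-06). AT2G17740 had 3.35 and 0.02 (difference -3.33 ± 0.27, adjusted p = 1.1e-06).

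Falls in shoots split into 287 with roots measured and 201 with low roots. AT3G05640 represents the first, with 7.31 and 7.12 in dark roots, 7.03 and 6.86 in submerged roots, 9.99 and 10.19 in dark shoots, and 6.99 and 6.94 in submerged shoots. Dark shoots were the group that stood apart, and water brought them down to the root level. Shoots fell by 3.12 (adjusted p = 2.8e-09), roots changed by -0.27 (adjusted p = 0.53), and the difference was 2.85 ± 0.24 (adjusted p = 1.3e-06). AT5G26200 fell by 1.91 in shoots with 0.59 in roots (difference 2.50 ± 0.27, adjusted p = 1.2e-05), and AT1G30260 fell by 2.57 with -0.27 (difference 2.30 ± 0.24, adjusted p = 1e-05). XTH19, an enzyme that cuts and rejoins wall xyloglucan, had -1.34 in shoots (adjusted p = 0.022) and 1.09 in roots (adjusted p = 0.14), so its difference of 2.43 ± 0.52 (adjusted p = 0.0072) joined a called fall to a rise that was not called.

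In the 201 with low roots the difference cannot separate a response of shoots alone from a fall that low root values could hide, although some falls below 6 were called. AT1G30250 read 4.25 and 4.52 in dark roots, 4.19 and 4.29 in submerged roots, 8.60 and 8.71 in dark shoots, and 4.55 and 4.48 in submerged shoots. Water took the shoots down to the root values. The shoot fall was 17.6-fold (-4.14, adjusted p = 9.9e-13) and the difference 4.00 ± 0.17 (adjusted p = 5.8e-10). AT3G21670, the nitrate transporter family member NPF6.4, went from 9.53 and 9.56 in dark shoots to 5.88 and 6.44, with 5.17 to 5.58 in roots (difference 3.53 ± 0.30, adjusted p = 1.3e-06). EXPA16, an expansin that loosens cell walls, fell by 3.11 in shoots from 8.42 and 8.23, with 4.00 to 4.40 in roots (difference 3.01 ± 0.28, adjusted p = 3.5e-06).

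Unequal changes in the same direction were rare. Of 176 probe sets that moved alike in both organs, 28 (15.9%) were also called in the difference. Rises larger in shoots made up 10 of them, falls larger in shoots 9, rises larger in roots 7 and falls larger in roots 2. AT4G23670 fell in both, from 8.59 and 8.76 to 7.83 and 7.77 in roots and from 10.58 and 10.79 to 7.40 and 7.53 in shoots. Shoots stood well above roots in the dark and slightly below them under water. The falls were -0.87 (adjusted p = 0.011) and -3.22 (adjusted p = 3.5e-09), with a difference of 2.34 ± 0.26 (adjusted p = 1.7e-05). AT1G64380 fell by 0.89 and 2.68 (difference 1.79 ± 0.23, adjusted p = 7.1e-05), and ZW9 by 0.93 and 2.00 (difference 1.07 ± 0.23, adjusted p = 0.0071). AT1G64380 read 5.04 and 4.91 in dark roots and 4.10 and 4.08 in submerged roots. These lie below 6, so a larger root fall could have been hidden. AT4G37240 rose by 2.47 in roots and 0.93 in shoots (difference 1.54 ± 0.29, adjusted p = 0.0024).

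The probe sets called in neither organ alone had small changes, with medians of 0.42 in roots and -0.38 in shoots where the difference was positive and of -0.41 and 0.35 where it was negative. All 158 had opposite signs in the organs, which the choice of this kind all but fixes. A difference has a larger SE than either change, so it seldom passes alone unless the changes oppose each other. AR781 read 7.64 and 7.68 in dark roots, 6.82 and 6.93 in submerged roots, 6.79 and 6.57 in dark shoots, and 7.42 and 7.59 in submerged shoots. The arrays of the arms did not overlap in either organ, and yet neither change passed (-0.78, adjusted p = 0.15; 0.83, adjusted p = 0.058). Its difference of -1.61 (adjusted p = 0.016) was lost without root dark replicate 1, root submerged replicate 1, shoot dark replicate 2 or shoot submerged replicate 2, between -1.72 and -1.50. AT2G07708 (1.68, adjusted p = 0.023), whose probe set can bind several transcripts, was lost without 5 arrays (root dark 2, root submerged 1, both shoot dark and shoot submerged 2), between 1.32 and 2.04. AT1G63580 (-1.54, adjusted p = 0.021) was also lost without 5 (root dark 1, both root submerged, shoot dark 1 and shoot submerged 2), between -1.97 and -1.10.

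Of 20 listed genes of cold, dehydration and abscisic acid 4 were measured. All 4 fell in shoots, where 6.02% of all tested probe sets fell, and none was called in roots, where 1.83% fell. A positive tissue difference was called for 3 of the 4, against 2.45% of the genes that could be named, with a median of 1.22. COR15A, which protects chloroplast membranes in the cold, read 7.50 and 7.36 in dark shoots and 4.68 and 4.86 in submerged shoots, with 4.07 to 4.42 in roots. Its roots lay near the bottom of the scale, where a fall is hard to see. The difference was 2.66 ± 0.23 (adjusted p = 1.5e-06). The dehydrin LTI30, in contrast, was well measured in roots, at 10.48 and 10.18 in the dark and 9.53 and 9.34 under water, against 7.25 and 6.90 and then 4.77 and 4.42 in shoots. It fell by 2.48 in shoots and changed by -0.89 in roots (adjusted p = 0.12), and its difference of 1.59 (adjusted p = 0.025) was lost without root dark replicate 2, root submerged replicates 1 or 2, shoot dark replicate 1 or shoot submerged replicate 2, between 1.41 and 1.76. COR47, another dehydrin, had a difference of 0.67 (adjusted p = 0.04) that was lost without any 1 of the 8 arrays, between 0.62 and 0.72. COR15B fell by 0.96 in shoots, and its difference of 0.86 was not called (adjusted p = 0.059). It lay below 6 on all 4 arrays of each organ, where a fall is measured over a narrow range.

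The remaining lists had few calls. Of 67 listed WRKY transcription factors 6 were measured. Of the 6, 4 rose in shoots, where 5.9% of all tested probe sets rose. None of the 6 was called in roots, where 1.39% rose and 1.83% fell. Their median difference was -0.79, with 1 called positive and 2 negative, against 2.45% and 3.37% of the genes that could be named. WRKY47 read 7.58 and 7.36 in dark roots, 7.90 and 8.04 in submerged roots, 5.82 and 5.88 in dark shoots, and 7.41 and 7.79 in submerged shoots, a shoot rise of 1.75 to the root level and a difference of -1.25 ± 0.25 (adjusted p = 0.0045). WRKY6 (-1.05, adjusted p = 0.045) was lost without both root dark and both root submerged arrays in turn, shoot dark replicate 1 and shoot submerged replicate 2, between -1.36 and -0.74. WRKY42 (0.57, adjusted p = 0.042), below 6 in both organs, was lost without any 1 of the 8, between 0.50 and 0.64. Of 17 listed calmodulin and calmodulin-like genes 7 were measured, with a median of -0.34, and CML41 alone was called. It read 6.13 and 5.98 in dark shoots, 8.48 and 8.16 in submerged shoots, and 4.20 to 5.04 in roots (difference -2.67 ± 0.28, adjusted p = 1e-05).

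Of 64 listed expansins and xyloglucan enzymes 27 were measured. Of the 27, 16 lay below 6 on all 4 root arrays and 15 on all 4 shoot arrays. A positive tissue difference was called for 3 (EXPA16, XTH19 and EXPA7) and a negative one for 1 (EXPA9). The shares among the genes that could be named were 2.45% positive and 3.37% negative, and the median of the 27 was 0.06. EXPA7, an expansin of root hairs, read 7.20 and 7.04 in dark roots and 7.74 and 7.88 in submerged roots, with 4.36 to 5.02 in shoots. Its difference of 1.1 (adjusted p = 0.02) was lost without root dark 2, root submerged 2, shoot dark 2 or shoot submerged 2, between 0.92 and 1.28. EXPA9 (-0.92, adjusted p = 0.04) was lost without each of the 8 arrays but root dark replicate 1, between -1.11 and -0.74. Of 75 listed auxin genes 11 were measured, 9 of them below 6 on all 4 root arrays and 5 on all 4 shoot arrays. IAA34, a repressor of the Aux/IAA family, rose from 4.80 and 4.89 to 6.05 and 6.02 in shoots with -0.27 in roots (difference -1.46 ± 0.20, adjusted p = 0.00013). IAA29, of the same family, fell by 1.15 in shoots with roots at 4.23 to 4.43, and its difference of 1.28 (adjusted p = 0.038) was lost without any 1 of the 8 arrays, between 1.14 and 1.43.

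In detoxification and turnover, 13 of 47 listed glutathione transferases were measured. Of the 13, 6 lay below 6 on all 4 root arrays and 9 on all 4 shoot arrays. A positive difference was called for 1 and a negative one for 1. For this and the next lists, the shares among the genes that could be named were 2.45% positive and 3.37% negative. Called or not, 10 of the 13 had a negative difference, with a median of -0.18 against -0.006 over the genes that could be named. GSTU18 fell from 8.55 and 8.48 to 6.56 and 7.00 in shoots, with low roots (1.85 ± 0.21, adjusted p = 2.7e-05), and GSTU16 fell by 0.82 in roots with 0.38 in shoots (-1.20 ± 0.20, adjusted p = 0.001). Of 241 listed genes with CYP symbols 26 were measured, 16 of them below 6 on all 4 root arrays and 13 on all 4 shoot arrays. Among the 26, CYP71 and CYP59 are cyclophilins and the rest cytochrome P450 enzymes. None was called positive and 2 were called negative. CYP71B23 rose from 8.24 and 8.17 to 9.90 and 9.38 in shoots, with -0.19 in roots (-1.63 ± 0.25, adjusted p = 0.00054), and CYP718 (-1.08, adjusted p = 0.026) was lost without both root dark arrays in turn, root submerged replicate 2, shoot dark replicate 1 and both shoot submerged arrays, between -1.26 and -0.89. Of 18 listed autophagy genes 8 were measured. ATG8H alone was called, with -0.61 in roots (adjusted p = 0.031), 0.44 in shoots (adjusted p = 0.066) and a difference of -1.06 ± 0.21 (adjusted p = 0.0044). Of 42 listed photosystem and antenna genes 7 were measured (median -0.11), and of 20 sugar starvation genes 4 (median -0.34). None of these was called in limma's test of the difference. Of the 4 shoot markers, STOMAGEN, a peptide that promotes stomata, fell by 1.09 in shoots with roots from 3.43 to 3.82 (1.3 ± 0.19, adjusted p = 0.00026).

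The 7 h arrays gave the same difference from other plants, with 1747 calls (7.68%; 3.82% positive and 3.86% negative), and share no array with those of 24 h. Of the 1561, 1331 (85.3%) had the same sign at 7 h, against 59.3% of all tested probe sets, and 574 (36.8%, or 32.9% of the 1747) were called at both times with the same sign. Only 6 were called with opposite signs. The median size over the 1561 was 1.05 at 24 h, where they were chosen, and 0.56 at 7 h. Of the 41 opposite responses, 38 had the same sign of difference at 7 h and 18 were called, yet in only 22 did both organs have the same signs as at 24 h, and 4 were opposite by the same rule at 7 h, when 77 probe sets in all were (0.339%).

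A change of the difference between the times was called for 161 probe sets (0.708%), with 62 higher (0.273%) and 99 lower (0.435%) at 24 h, and 108 of the 161 had opposite signs of the difference at the 2 times. Leaving out the first root dark array gave 81, the second submerged root array 69, and the first and second shoot dark arrays 89 and 66. AT4G15680 had the largest change among the genes named by rule, and COR15B (-3.48, adjusted p = 0.00027) and PYK10 (-2.15, adjusted p = 0.009), named after their values were seen, were also called. COR15B lay below 6 on all 4 shoot arrays of 24 h, where a fall is measured over a narrow range. At 24 h AT4G15680 read 8.85 and 8.26 in dark shoots and 5.56 and 5.17 in submerged shoots, with 4.47 to 4.81 in roots. Shoots fell by 3.19 at 24 h and changed by 0.20 at 7 h (adjusted p = 0.64), while roots stayed low at both times. The tissue difference went from -0.41 to 2.96 (change 3.38 ± 0.40, adjusted p = 0.00042). AT2G39210 and AT2G18690 went the other way, with shoot rises of 0.84 and 1.71 at 7 h and of 2.69 and 3.60 at 24 h, and changes of -2.20 ± 0.38 (adjusted p = 0.011) and -2.48 ± 0.55 (adjusted p = 0.047).

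**Figure D5:**
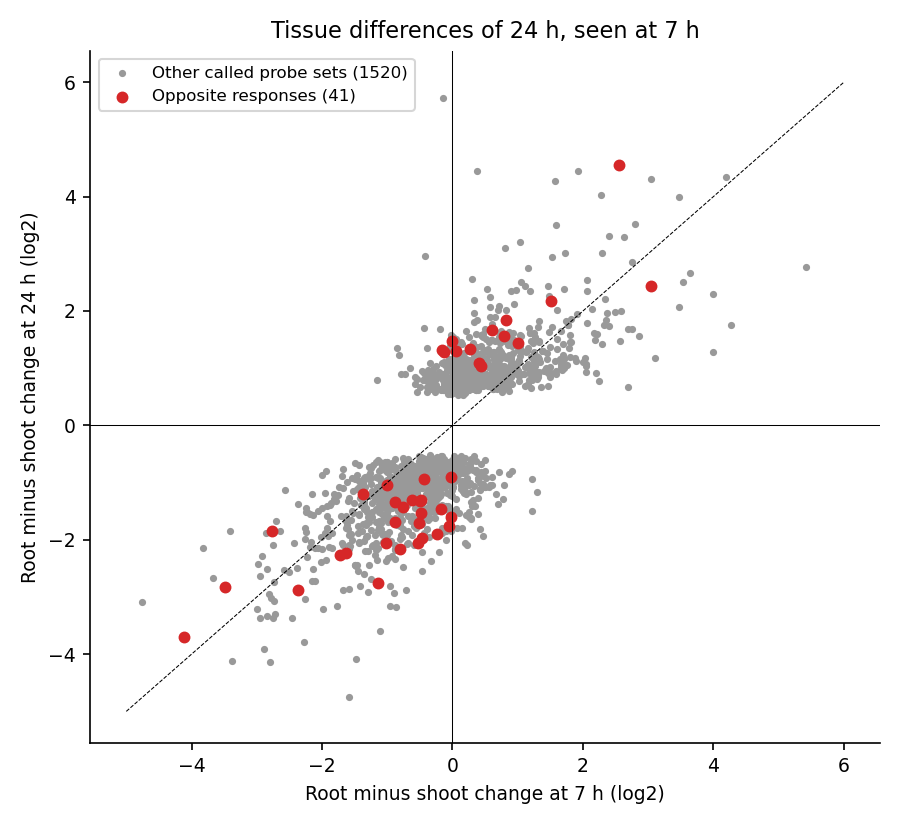
Tissue difference at 24 h (vertical axis, log2) against the same difference at 7 h (horizontal axis, log2) for the 1561 probe sets called at 24 h, 1 point each, with the 41 opposite responses in red and equal values on the dashed line. Of the 1561, 1331 lie in the upper right or lower left, where the sign is the same at both times, and AT4G15680 (-0.41 at 7 h, 2.96 at 24 h) is among those that do not.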

How the data were processed

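The authors deposited log2 expression values for each probe set and array of the Affymetrix ATH1 type, made with RMA (affy package), per the submitters' processing notes. No version of either, and no genome build, is given in the sources used here. The values were used as deposited. Probe sets were named through the platform's annotation, which gives 1 gene for 13513 probe sets, several for 503 and none for 8730 tested ones, so 742 of the 1561 calls have no name here. RefSeq locus tags (TAIR10.1) matched 13436.

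All 20 arrays were fitted by group means with limma 3.58.1 (R 4.3.3; 10 residual and 7.04 prior degrees of freedom), two-sided, with Benjamini and Hochberg adjustment over 22746 probe sets. Members of a class were called at adjusted p under 0.05. With 2 arrays a group, the number of arrays limits the precision, and p-values measure only the spread between these arrays. Values after ± are SE. The fit was tested on simulated data.

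The lists, contrasts and naming rule were chosen with earlier results of these data known. A gene with several probe sets is given by the one with the highest mean. Among probe sets of 1 gene whose arms do not overlap, the text names by size of the difference up to 6 of each opposite direction, 3 or 4 of each other kind, the 3 with the largest 24 h difference among those called both there and in the change from 7 h, and up to 3 called members of each of the 12 lists with at least 3 measured genes (16 lists had fewer). Other low-oxygen members, PYK10, COR15B and EXPA9 were named after their values were seen.

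Alternatives were a filter, fewer arrays, other normalization, other variance, call and level rules, the replicate number as a block, and each 24 h array left out.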

Additional observations from a re-analysis of the deposited data

Results flagged for a closer look

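The tissue difference tests whether an effect differs between organs, and it did so for 1561 probe sets at 24 h. The same test between times was passed by 161 probe sets. Upward changes were found in 3 named genes. AT4G15680 changed by 3.38 (adjusted p = 0.00042), and AT2G05120 changed by 1.48 (adjusted p = 0.036), from -0.17 to 1.31. AT3G03270 changed by 2.06 (adjusted p = 0.046), from -0.83 to 1.24. The other named genes with a called change went down. COR15B changed by -3.48 (adjusted p = 0.00027), from 4.34 to 0.86, and PYK10 by -2.15 (adjusted p = 0.009), from 1.21 to -0.94. At 24 h COR15B lay below 6 on all 4 shoot arrays, so its shoot fall there was measured over a narrow range. IAA29 changed by -2.71 (adjusted p = 0.018), from a difference of 4.00 at 7 h, when shoots had fallen by 4.00, to 1.28. AT1G30260 changed by -1.69 (adjusted p = 0.029), from 3.99 to 2.30. AT2G18690 (-2.48) and AT2G39210 (-2.20) became more negative, from -1.12 and -0.96. CYP71B23 (-1.92, adjusted p = 0.018), AT5G43450 (-1.66, adjusted p = 0.046) and GSTU16 (-1.41, adjusted p = 0.027) had no called difference at 7 h (0.29, -0.24 and 0.21) and were negative at 24 h. All these adjusted p are from limma over all tested probe sets.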

How the results depend on the processing

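No gene named by the rule changed the sign of its difference under any setting that kept it. The filter kept 65 of the 67, and 54 of the 67 kept their call under every setting that kept them. The intensity trend lost 4 of the 67 (AT3G60420, AT5G10040, LTI30 and WRKY42, adjusted p = 0.074, 0.098, 0.075 and 0.074). Quantile normalization lost WRKY6 (adjusted p = 0.064) and the 24 h arrays alone WRKY42 (adjusted p = 0.06). AT5G66985, outside the rule, was lost under the trend and under quantile normalization. The total stayed between 1534 and 1763 under the filter, fewer arrays, other normalization, other variance and the block. It was 852 with a minimum difference of 1, which by construction drops smaller ones such as COR47 and WRKY42, when roots alone were 58, shoots alone 418, low in the other tissue 288 and neither 29. With the 8 arrays of 24 h alone, opposite responses were 65 and same-direction ones 45. A change of at least 1 in place of each organ's test gave 7 opposite, 11 same-direction, 46 roots alone, 377 shoots alone, 245 low and 875 neither. A level of 5 as too low gave 276. The change between times was 248 without the light arrays. Leaving out 1 array gave 961 to 1263 in all, 13 to 47 opposite, 14 to 25 same-direction, 45 to 114 roots alone, 462 to 603 shoots alone, 302 to 389 low, 77 to 135 neither and 66 to 171 for the change. For the low-oxygen list, chosen as a result to repeat after seeing the data, it gave 6 to 11 called positive differences. Rises were 11 to 16 in roots and 5 to 8 in shoots. The share of positive differences was 38.5% to 44.8% (43.4% as reported). Across all tested probe sets, replicates with the same number did not deviate together from their group means (r between -0.041 and 0.094). Such a correlation over all probe sets cannot settle whether the numbers pair arrays by experiment. With the replicate number as a block the counts were 1541 in all, 38 opposite and 148 for the change, and no count moved by over 1.5 times.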

Other observations

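Genes that lie side by side in the annotation were looked at as a description. Of 5814 neighbouring pairs in which both genes could be named, 34 had both called in the tissue difference, 23 with the same sign and 11 with opposite signs. A called gene had a called neighbour in 9.16% of cases, against 6.38% called among all genes of such pairs. AT1G30240, AT1G30250 and AT1G30260 stand in a row with differences of 1.50, 4.00 and 2.30. AT1G62760, AT1G62770, AT1G62780 and AT1G62790 had -1.58, -1.46, -1.48 and -0.96. AT2G44370 and AT2G44380 had -1.94 and -2.33, and AT1G29660 and AT1G29670 had 2.44 and 1.46. Neighbouring probe sets of related genes can share targets, and whether these do was not tested.

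The other sets with respect to the light arrays were as follows. Of 103 rises called in roots and not in shoots, 83 (80.6%) were higher in roots than in shoots at 0 h in the light, and of 132 such falls 96 (72.7%) were. Low shoot values favour this order by construction. With low shoots it held for 51 of the 55 rises and 42 of the 49 falls. With shoots measured it held for 32 of the 48 rises and 54 of the 83 falls. Of 488 falls called in shoots and not in roots, 214 (43.9%) were higher in roots. This pools 182 of the 287 with roots measured and 32 of the 201 with low roots, a kind that favours higher shoots by construction. All tested probe sets had 51.5%.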
